A study of Mus musculus with 32 samples.

Results

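9 genes of myelin and of the oligodendrocyte, the cell that makes myelin in the brain, were followed through brain arteries of 32 mice: Mbp, Mog, Mag, Mobp, Cnp, Cldn11, Opalin, Ermn and Mal. They were chosen by name, with earlier results of these data known, and were matched by Ensembl identifier. This gave 9 of the 55357 genes in the count table, and all 9 passed the filter on low counts in every comparison. The study asked how arteries differ when Notch3, a receptor of the smooth muscle cell of the arterial wall, is missing or carries a mutation of CADASIL, an inherited disease of small brain vessels. Each mouse gave 1 library of poly(A)-selected RNA from arteries dissected in cold PBS, with no treatment, and each group had 8 mice. At an age of 3 months, Notch3-/- animals were set beside Notch3+/+ animals, and at 12 months TgNotch3R169C animals beside non-Tg controls (here WT). TgNotch3R169C mice carried rat Notch3 with R169C on a phage P1-derived artificial chromosome and kept the mouse Notch3 gene, so both the mutant and the normal receptor were made. The control groups differed in both age and mouse line, so these cannot be told apart. The labels do not give the sex of a mouse or say whether any of the mice shared a litter. The study examined both sexes and describes the controls as wild-type littermates of matched age. Which mice shared a litter is not given.

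Oligodendrocytes wrap axons in compacted membrane, and the proteins of this membrane are used as marks of the mature cell. Mbp and Mobp hold the cytoplasmic faces of the membrane together, Mag faces the axon, Mog lies outermost on the sheath, and Cnp lies in the uncompacted cytoplasm. Ermn and Opalin mark the late stage of the cell, Cldn11 forms the tight junctions between myelin layers, and Mal is a lipid raft protein of myelin. Several of the genes are also active outside the brain's oligodendrocytes: Schwann cells of peripheral nerves make Mbp, Mag, Cnp and Mal, and Cldn11 seals the arachnoid barrier of the meninges. An artery has no oligodendrocyte of its own, and dissected arteries can carry brain tissue, meninges and perivascular nerve. In bulk RNA, fewer cells of a type and less RNA per cell cannot be told apart.

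The depth of the libraries ran from 20289487 to 54481934 counts. Notch3 checked the labels: its level was 83.6 ± 12.0 CPM (read counts scaled to library size, with SD, n = 8) in Notch3+/+ mice, 16.2 ± 1.82 in Notch3-/- mice, 73.2 ± 8.19 in WT mice and 181.9 ± 34.5 in TgNotch3R169C mice. Markers of the choroid plexus or of the pituitary, tissues that lie next to the arteries, were high (a mean over the list above a log2 CPM of 6) in 1 Notch3+/+, 1 Notch3-/-, 4 WT and 2 TgNotch3R169C libraries. Counts of calls between the control groups, where 5 of those libraries lie, are given with and without them.

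The promoters are shown because the members did not all vary alike between mice and because Myrf, the factor that drives late oligodendrocyte genes, was among the 10 genes whose levels followed theirs most closely. RefSeq promoter windows existed for 8 of the 9 members, and the 250 bases upstream of a start were searched on both strands for CTGGCAC and CTGGTAC, forms of the Myrf motif, and for ACAAAG, a core bound by SOX factors such as Sox10. A Myrf form was found in 3 of the 8 members (Mag, Cnp and Mog) and ACAAAG in 4 (Mag, Cnp, Mobp and Opalin), with no overlap between motifs. Over all 32851 windows of the same length, 5.93% held a Myrf form and 16.5% held ACAAAG. These shares are per window, whereas a member was counted if any of its windows matched (10 windows for the 8 members). Neither was found in the windows of Ermn, Cldn11 or Mal. Ermn, Mobp and Opalin hold no Myrf form, yet varied between mice together with Mag, Cnp and Mog (below). A match describes the letters in the window and does not show binding. Whether a motif bears on how a member varies was not tested. The windows of Mag (the start farthest upstream), Cnp and Mog, which hold a Myrf form, and of Cldn11, which holds no match and stood apart from the others, follow 5′ to 3′, with motif matches in capitals (a motif on the other strand appears as its complement read backwards).

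Mag, GRCm38.p6, chr7:30914923-30915172, minus strand: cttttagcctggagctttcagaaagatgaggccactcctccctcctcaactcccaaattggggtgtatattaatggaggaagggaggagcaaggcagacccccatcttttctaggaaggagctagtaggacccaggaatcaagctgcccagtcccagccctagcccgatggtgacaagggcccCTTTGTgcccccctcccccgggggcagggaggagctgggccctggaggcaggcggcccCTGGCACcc
Cnp, GRCm38.p6, chr11:100574689-100574938, plus strand: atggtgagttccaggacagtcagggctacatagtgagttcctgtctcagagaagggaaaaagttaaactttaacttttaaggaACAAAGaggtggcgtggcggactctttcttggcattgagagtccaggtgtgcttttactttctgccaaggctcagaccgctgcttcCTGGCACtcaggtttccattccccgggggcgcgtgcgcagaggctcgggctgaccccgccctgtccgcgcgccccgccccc
Mog, GRCm38.p6, chr17:37023399-37023648, minus strand: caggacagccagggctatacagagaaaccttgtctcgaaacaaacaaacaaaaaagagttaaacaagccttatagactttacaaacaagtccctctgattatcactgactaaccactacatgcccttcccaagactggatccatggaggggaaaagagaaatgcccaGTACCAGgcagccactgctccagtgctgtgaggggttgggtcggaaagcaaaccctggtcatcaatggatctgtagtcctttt
Cldn11, GRCm38.p6, chr3:31149670-31149919, plus strand: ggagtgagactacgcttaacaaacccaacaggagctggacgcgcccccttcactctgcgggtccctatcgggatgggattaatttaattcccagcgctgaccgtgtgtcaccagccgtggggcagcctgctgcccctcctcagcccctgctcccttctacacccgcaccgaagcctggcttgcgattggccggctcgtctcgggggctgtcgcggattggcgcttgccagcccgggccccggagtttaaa

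Levels were compared between genes per kb of exon, over all 32 libraries. Cldn11 was the highest at 143 CPM per kb, followed by Mbp at 68.1, Mal at 50.8, Cnp at 26.7 and Mobp at 20.8. Mag stood at 8.15, Mog at 4.67, Ermn at 2.73 and Opalin at 0.599 CPM per kb. The order held in all 32 libraries for 6 of the 8 neighbouring pairs. Mbp was above Mal in 25 libraries and Cnp was above Mobp in 30, so Mbp and Mal are the neighbours that overlapped most. The lowest count behind any of these values was 21, for Opalin, and the highest was 39987, for Mbp.

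**Figure D1:**
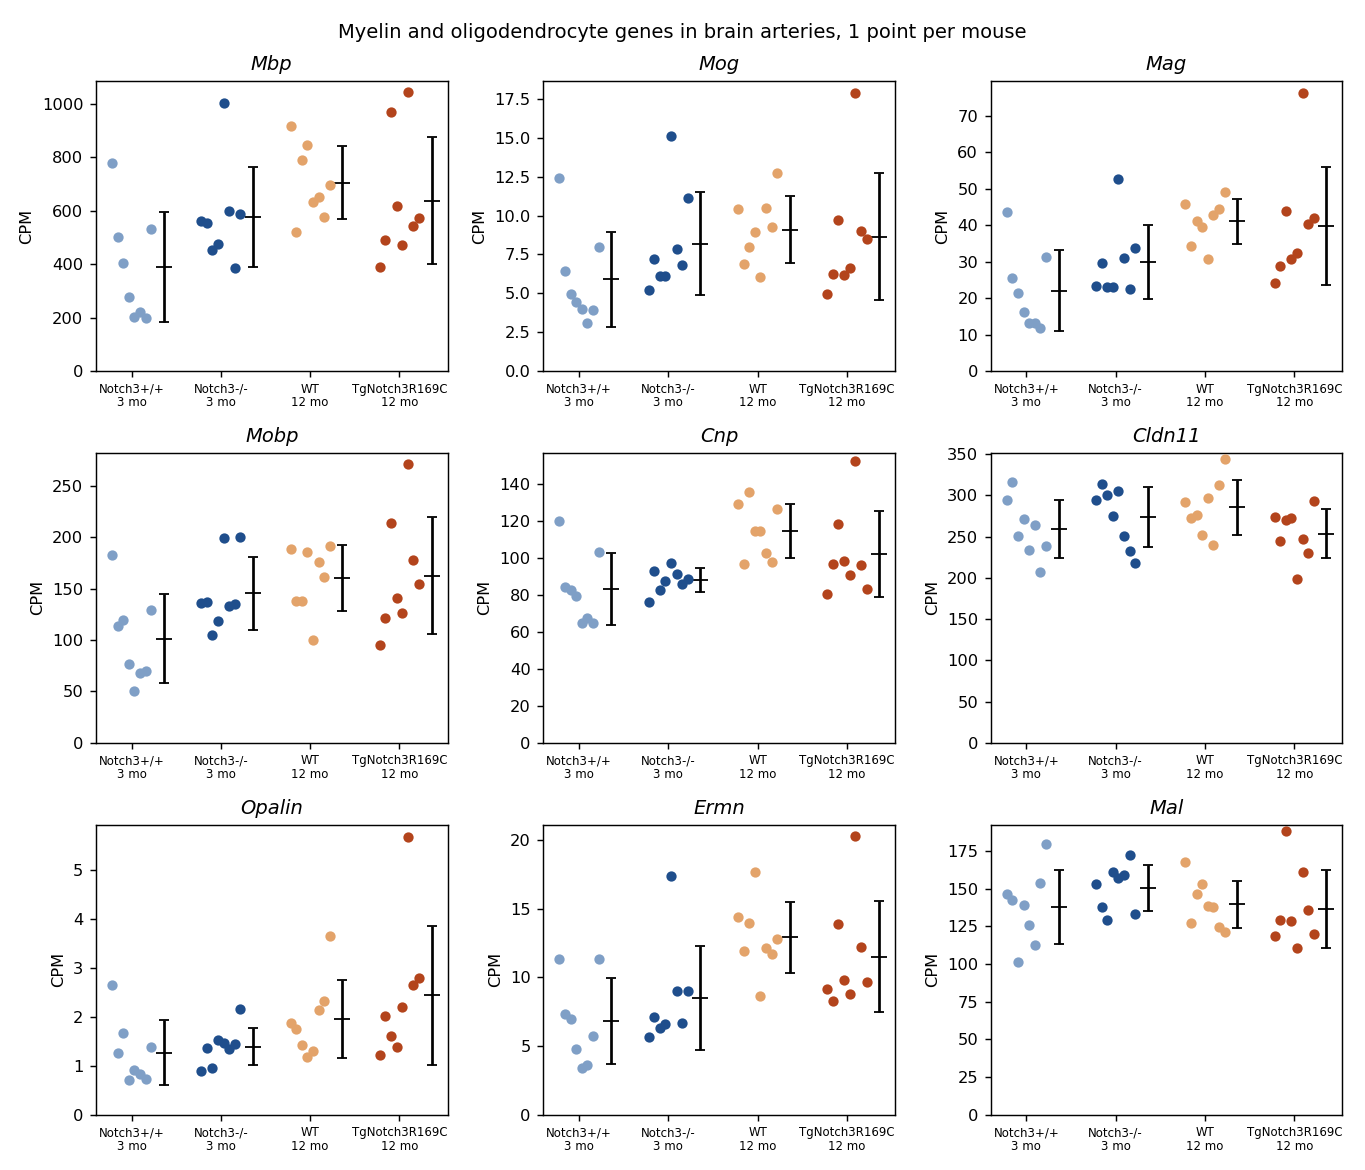
CPM of the 9 members on the y axis (linear, from 0) for each mouse by group, with the mean ± SD (bars) beside the 8 points of a group. The groups overlap for every member, and 1 or 2 mice lie well above the others in several panels, such as Ermn, in which a single Notch3-/- mouse stood at 17.3 CPM.

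The clearest difference was between the control groups. Mag, Ermn and Cnp rose in the older WT animals against the younger Notch3+/+ animals, and no member fell. Mag, the adhesion protein that faces the axon, was 11.9, 18.8 and 43.6 CPM (lowest, median and highest) in Notch3+/+ mice and 30.8, 42.0 and 49.2 in WT mice. The groups overlapped, since 3 of 8 WT mice lay above every Notch3+/+ mouse and 6 of 8 Notch3+/+ mice lay below every WT mouse. Its log2 fold change was 0.89 ± 0.24 (SE; adjusted p = 0.0296 by edgeR's quasi-likelihood test with Benjamini-Hochberg adjustment over all genes).

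Ermn, a cytoskeletal protein of late oligodendrocytes, was 3.36, 6.37 and 11.3 CPM in Notch3+/+ mice and 8.67, 12.47 and 17.7 in WT mice. All but 1 of the WT mice (7 of 8) lay above the highest Notch3+/+ mouse. Its log2 fold change was 0.92 ± 0.24 (edgeR adjusted p = 0.0277). Cnp, an enzyme of the cytoplasmic channels of myelin, was 64.7, 81.1 and 120.0 CPM in Notch3+/+ mice and 96.8, 114.6 and 135.9 in WT mice, with 3 of 8 WT mice above every Notch3+/+ mouse. Its log2 fold change was 0.46 ± 0.13 (edgeR adjusted p = 0.0337).

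Mbp and Mobp, which compact the membrane, pointed the same way without passing the test. Mbp was 199, 341 and 778 CPM in Notch3+/+ mice and 521, 674 and 919 in WT mice (log2 fold change 0.85, 95% CI 0.30 to 1.40, edgeR adjusted p = 0.0541). Mobp was 50.6, 95.2 and 183 CPM in Notch3+/+ mice and 100.2, 169 and 191 in WT mice (0.65, 95% CI 0.18 to 1.13, edgeR adjusted p = 0.0797). All 8 WT mice lay above the median of the Notch3+/+ mice for both genes. Mog, the outermost protein of the sheath, was 3.11, 4.71 and 12.4 CPM against 6.06, 9.10 and 12.8 (0.62, edgeR adjusted p = 0.139). Opalin, a membrane protein of the late cell, was 0.701, 1.09 and 2.65 CPM against 1.17, 1.81 and 3.66 (0.61, edgeR adjusted p = 0.215).

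Cldn11 and Mal were nearly level between the control groups. Cldn11 was 206, 257 and 316 CPM in Notch3+/+ mice and 239, 284 and 344 in WT mice, giving 0.14 on the log2 scale (95% CI -0.04 to 0.31). Mal was 101.5, 140.7 and 179.7 CPM against 120.9, 138.3 and 167.4, giving 0.02 on the log2 scale (95% CI -0.20 to 0.23). Both intervals end below 0.46, the smallest log2 fold change among the members that were called.

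Of the 9 members, 3 were called higher, where 3.87% of all 17643 genes tested were called higher and 7.92% in either direction. The log2 fold change was positive for 9 of 9 (50.6% of all genes), 6 of 9 had an unadjusted p below 0.05 (24.2% of all genes), and the median of the members was 0.62 against 0.0026 over all genes tested. DESeq2 called 5 members (11% of all genes) and limma voom 4 (7.08% of all genes). No member had groups that did not overlap, against 1.24% of all genes. The members were chosen with earlier results of these data known, so these shares are not an independent test.

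**Figure D2:**
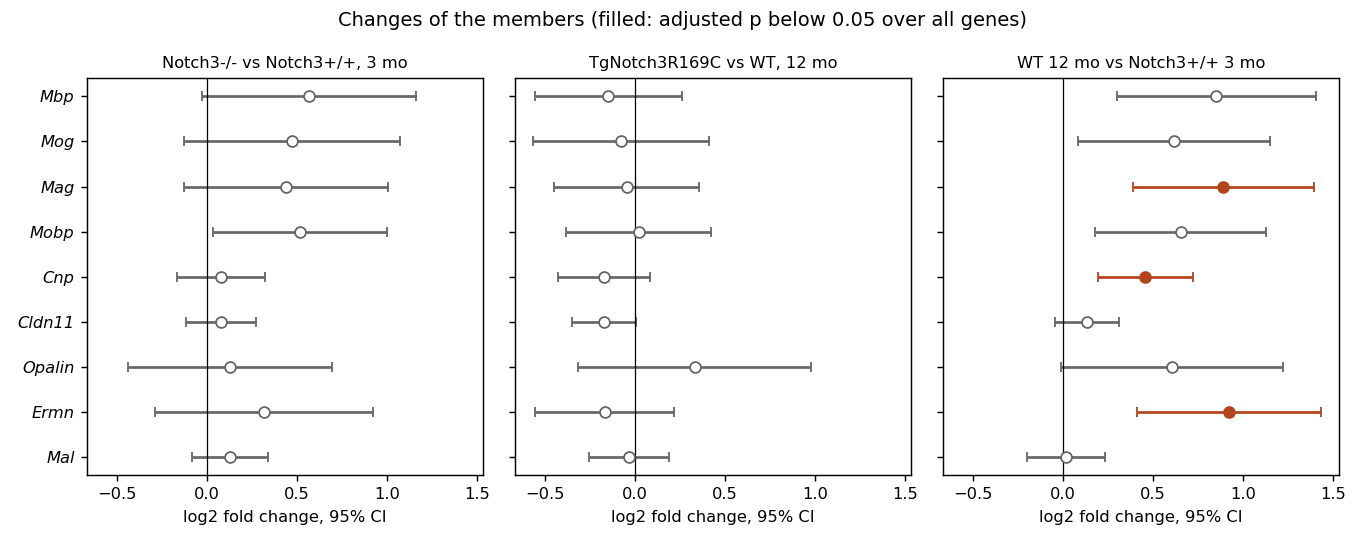
Log2 fold change (x axis) of each member with its 95% CI in 3 comparisons; filled points passed the adjusted p threshold of 0.05. Mag, Cnp and Ermn passed it between the control groups, and none did in either mutant.

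The calls were thin. Leaving out 1 library at a time, Ermn was called in 14 of 16 fits, Mag in 12 and Cnp in 7. None of the 9 was called without Notch3+/+ mouse 4 or without Notch3+/+ mouse 7, only Ermn without mouse 6, and 6 members were called without mouse 1, the Notch3+/+ mouse with the highest level of 7 members. Without the choroid- or pituitary-rich libraries, which leaves 4 WT and 7 Notch3+/+ mice, edgeR called 0 members and 1.31% of all genes, while 6 members had an unadjusted p below 0.05 and the log2 fold changes stayed close: 0.95 for Mag, 0.51 for Cnp and 0.86 for Ermn (edgeR adjusted p = 0.129, 0.125 and 0.134).

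Other cell types moved with the same contrast. Of the 8 smooth muscle genes tested, 8 fell (median log2 fold change -0.81), and the summed smooth muscle level ran from 2439 to 4361 CPM in Notch3+/+ mice and from 1355 to 2111 in WT mice, with no overlap. Without the choroid- or pituitary-rich libraries 5 of the 8 fell and the median was -0.76. Of the 7 choroid plexus genes, 5 rose (median 3.94; none without those libraries, median 0.42), with a summed level of 313 to 658 CPM in Notch3+/+ mice and 292 to 25565 in WT mice. With the mean of the smooth muscle list as a covariate, 0 of 17643 genes were called in the whole table (2329 had an unadjusted p below 0.05), no member had an unadjusted p below 0.05, and the median of the members was -0.00243. Since the smooth muscle levels of these groups do not overlap, this covariate and the group cannot be told apart. For the choroid plexus, the members' folds without the rich libraries are those given above; its part was not tested otherwise.

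Schwann cell markers were examined because Mbp, Mag, Cnp and Mal are shared with peripheral myelin. Of 9 Schwann genes tested, 1 rose (Cdh19, a cadherin of the glial precursor, log2 fold change 0.94, edgeR adjusted p = 0.00587), and the median was 1.11. Without the choroid- or pituitary-rich libraries 1 was called and the median was 1.14. The summed Schwann level was 255 to 544 CPM in Notch3+/+ mice, 277 to 557 in Notch3-/-, 318 to 972 in WT and 298 to 757 in TgNotch3R169C mice, and Pmp2, a defining gene of the list, was at or near 0 in every group (at most 5 counts in a library). With the mean of the Schwann list as a covariate, 0 members were called (0.771% of all genes, 1 member with an unadjusted p below 0.05), the log2 fold changes of Mag, Cnp and Ermn were 0.59, 0.13 and 0.51, and that of Mbp went from 0.85 to 0.29.

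Neurons, astrocytes, arachnoid cells, endothelium, fibroblasts, microglia and the pituitary were the other cell types and tissues considered. No gene of the neuron list (10 tested) or of the arachnoid list (7 tested) was called, and the medians were 0.26 and -0.12. Of 8 astrocyte genes, 2 rose and 1 fell, and without the choroid- or pituitary-rich libraries none rose and 1 fell. All 7 endothelial genes had a negative log2 fold change (median -0.22), and 1 fell. Of 6 fibroblast genes, 2 fell (median -0.09). Without the choroid- or pituitary-rich libraries, 0 endothelial and 2 fibroblast genes fell. No gene of the microglia list (6 tested) or of the pituitary list (4 tested) was called. Adding the neuron list as a covariate left the same 3 members called, and adding the astrocyte list left only Ermn called, with Mag at 0.82 (edgeR adjusted p = 0.0509) and Cnp at 0.41 (edgeR adjusted p = 0.0536), close to their values without it.

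The other genes of myelin moved with the members. Of 30 other myelin genes tested, 14 rose and none fell between the control groups, with a median log2 fold change of 0.59. Without the choroid- or pituitary-rich libraries 2 of 31 rose and the median was 0.63, and with the Schwann covariate 1 of 30 rose and the median was 0.37. They included Trf, the iron carrier transferrin that the choroid plexus also makes, which went from 281 ± 25.6 to 409 ± 38.8 CPM (log2 fold change 0.54, edgeR adjusted p = 0.000338). Car2, a carbonic anhydrase likewise made there, rose by 1.39, Hapln2, a matrix protein of the node of Ranvier, by 1.07, Gjb1, a gap junction protein that Schwann cells share, by 1.21, while Fa2h, which makes the hydroxylated lipids of myelin, and Gal3st1, which makes sulfatide, were called at adjusted p = 0.0433 and 0.0196 by edgeR. Ndrg1 and Sirt2, among the 4 highest of the list, had log2 fold changes of -0.08 and 0.11 and did not pass the test.

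Among lineage factors, 2 of 10 rose: Sox10, shared by oligodendrocytes and Schwann cells, went from 10.6 ± 6.07 to 24.1 ± 8.32 CPM (log2 fold change 1.18, edgeR adjusted p = 0.0281), and Myrf, the regulator of myelin genes, from 9.53 ± 4.07 to 16.2 ± 3.32 CPM (0.76, edgeR adjusted p = 0.0381). Neither was called without the choroid- or pituitary-rich libraries, where 0 of 10 were called and the median went from 0.47 to 0.67. Olig1 and Tcf7l2 had log2 fold changes of 0.18 and 0.19 and were not called. Of 11 precursor genes, 9 had a negative log2 fold change and 2 a positive one, with a median of -0.09. C1ql1 rose (0.38), while Cspg4 (-0.62) and Vcan (-0.55) fell. Without the choroid- or pituitary-rich libraries none rose and 1 fell, with a median of -0.06. Cspg4 and Vcan are also expressed by cells of the vessel wall, Cspg4 by pericytes and smooth muscle cells.

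**Figure D3:**
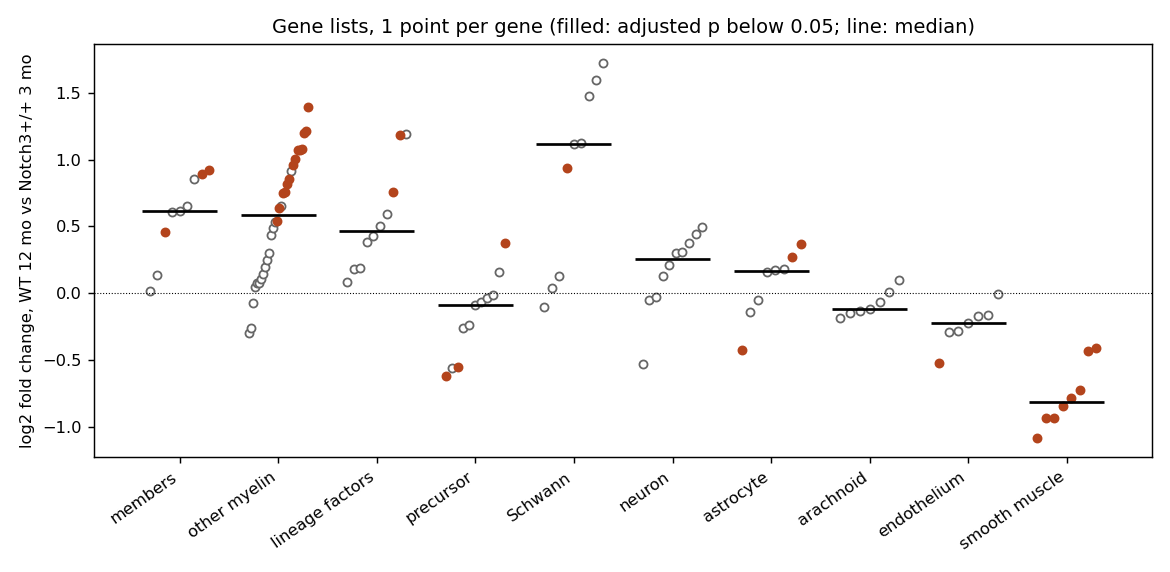
Log2 fold change (y axis) between the older WT and the younger Notch3+/+ animals for each gene of 10 lists (1 point per gene); filled points passed the adjusted p threshold of 0.05 and the bar is the median. The myelin lists lie mostly above 0, the smooth muscle list below 0, and the Schwann list has the highest median of those drawn.

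In Notch3-/- mice no member was called. The log2 fold change was positive for all 9 members (49.5% of all genes were positive), with a median of 0.32 against -0.0011 over all genes tested, and 0.649% of all 17714 genes were called. Mobp alone had an unadjusted p below 0.05 (0.0365, against 7.69% of all genes): it was 50.6, 95.2 and 183 CPM in Notch3+/+ mice and 105.0, 135.3 and 200.2 in Notch3-/- mice, with all 8 Notch3-/- mice above the Notch3+/+ median and a log2 fold change of 0.52 ± 0.23 (edgeR adjusted p = 0.590). Mbp, at 386, 558 and 1001 CPM in Notch3-/- mice, had a log2 fold change of 0.57 (95% CI -0.02 to 1.16). The number of members with an unadjusted p below 0.05 depended on single mice: it was 0 without Notch3-/- mouse 5 or 8 or Notch3+/+ mouse 4, 5, 6 or 7, and was 2 without Notch3-/- mouse 7 or Notch3+/+ mouse 2, 3 without Notch3+/+ mouse 8 and 4 without Notch3+/+ mouse 1. Mog and Mag, at 0.47 and 0.44, also had all 8 Notch3-/- mice above the Notch3+/+ median, and their groups overlapped. Cnp (0.08, 95% CI -0.16 to 0.32) and Cldn11 (0.08, 95% CI -0.11 to 0.27) were close to 0. The Notch3+/+ mice are the reference of this comparison and of the comparison between controls, so the shared sign of the members is not independent between them.

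In the same contrast 6 of 8 smooth muscle genes fell, and Cspg4 was the only gene of the oligodendrocyte lists that was called (-0.49, edgeR adjusted p = 0.0159). No other myelin gene of 30 tested was called, and 26 of 30 had a positive log2 fold change. DESeq2 (1.28% of all genes called) and limma voom (0.638%) also called no member, and neither did any fit without 1 library. No member had groups that did not overlap (0.322% of all genes).

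In TgNotch3R169C mice no member was called and none had an unadjusted p below 0.05 (2 did without TgNotch3R169C mouse 6, and 1 without TgNotch3R169C mouse 1 or 8 or WT mouse 4 or 6), where 0.113% of all 17731 genes were called and 7.27% had such a p. DESeq2 (0.33% of all genes called) and limma voom (0.113%) called no member either, and no member had groups that did not overlap (0.141% of all genes). The members' median was -0.08 against -0.0074 over all genes tested, and 2 of 9 had a positive log2 fold change (47% of all genes). Cldn11 had the narrowest interval, a log2 fold change of -0.17 (95% CI -0.35 to 0.01), with 198, 258 and 293 CPM in TgNotch3R169C mice against 239, 284 and 344 in WT mice. Mbp was 389, 558 and 1042 CPM in TgNotch3R169C mice (-0.15, 95% CI -0.56 to 0.26), and Opalin was 1.23, 2.12 and 5.68 CPM (0.33, 95% CI -0.31 to 0.98). The intervals of Mag (-0.45 to 0.35) and Mobp (-0.38 to 0.42) leave out changes of 0.5 in either direction. All genes of the neuron list had a positive log2 fold change here, with a median of 0.40 and a summed level of 289 to 1063 CPM in WT mice and 447 to 1367 in TgNotch3R169C mice. None of the 10 was called. All 8 astrocyte genes were positive too (median 0.16), and none was called. With the mean of the neuron list as a covariate, no member was called or had an unadjusted p below 0.05, 1 of 9 was positive and the median was -0.14. With the astrocyte list instead, 1 member had an unadjusted p below 0.05 (631 of 17731 genes). Without the choroid- or pituitary-rich libraries 1 member did (1412 of 18097 genes). No member was called in either fit.

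The difference between the changes of the mutants was tested as an interaction over all 4 groups. No member was called, where 0.35% of all 18555 genes were called, no member had an unadjusted p below 0.05 (8.62% of all genes; 6 members did without Notch3+/+ mouse 1, 5 without TgNotch3R169C mouse 6, and 0 to 2 without any other 1 mouse), 1 of 9 was positive (50.2% of all genes), and the median was -0.48. DESeq2 (0.715% of all genes called) and limma voom (0.366%) called none. The largest was Mbp at -0.71 (95% CI -1.43 to 0.00). Mog lies on the chromosome of Notch3, chromosome 17, and its difference was -0.54 (95% CI -1.31 to 0.22). Whether this position bears on its level was not tested.

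The members varied together between mice of the same group. After removal of group means, the SD of log2 CPM was 0.45 to 0.57 for Mbp, Mog, Mag, Mobp, Ermn and Opalin, and 0.24, 0.21 and 0.19 for Cnp, Mal and Cldn11. For the 7 members other than Cldn11 and Mal, Pearson's r over the 32 libraries ran from 0.51 to 0.96 in 21 pairs (median 0.83), with every permutation p below 0.05 after adjustment over 36 pairs (largest 0.0131). Spearman's rho ran from 0.41 to 0.94 in these pairs, and its adjusted p was above 0.05 for Cnp with Opalin (0.0572). Without the 2 libraries farthest from the median of the first gene, r ran from 0.29 to 0.93.

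Mog and Mag, the outer and the inner face of the sheath, formed the tightest pair, with r = 0.96 and rho = 0.94 (adjusted permutation p = 2.40e-05 and 3.27e-05 over 36 pairs) and 0.94 to 0.99 within each of the 4 groups. Mbp and Opalin had r = -0.25 within WT mice and 0.89 within Notch3+/+ mice. Each within-group r rests on 8 mice and was not tested.

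Cldn11 and Mal did not follow the others. The 8 pairs with Cldn11 had r from -0.08 to 0.33, none with an adjusted p below 0.05, and the 8 pairs with Mal had r from -0.08 to 0.53, of which 3 (with Mbp, Cnp and Ermn) passed. Cldn11 instead followed the mean of 7 arachnoid genes (r = 0.74, rho = 0.69, adjusted permutation p = 0.000231 and 0.000463 over 81 relations of a member with a list), with r = 0.63 without the 2 farthest libraries and 0.49 to 0.92 within groups. It also ran against the choroid plexus list (r = -0.47, adjusted permutation p = 0.0294), a relation that was -0.24 without the 2 farthest libraries and 0.10 within Notch3+/+ mice, and whose rho (-0.35) had an adjusted permutation p of 0.137.

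**Figure D4:**
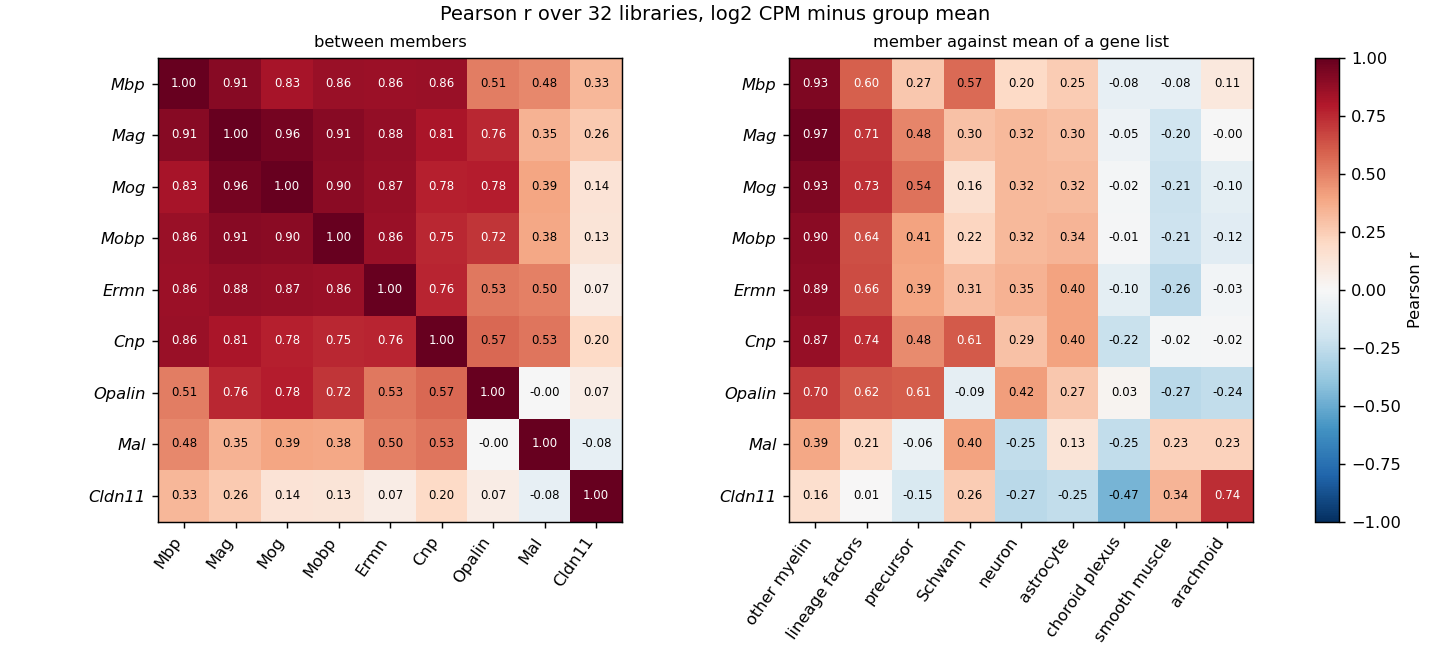
Pearson's r over 32 libraries between members (left) and between members and the mean of 9 gene lists (right), from log2 CPM with group means removed; red is positive and blue negative. The block of 7 members is red, while Cldn11 is pale except against the arachnoid (0.74) and choroid plexus (-0.47) lists.

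Of the 7 members that varied together, Mbp and Cnp also followed the Schwann list (r = 0.57 and 0.61, rho = 0.56 and 0.64, adjusted permutation p = 0.00259 and 0.00106 over 81 relations), with r = 0.58 and 0.59 without the 2 farthest libraries, which the other 5 did not do with an adjusted p below 0.05. In Notch3+/+ mice these r were 0.94 and 0.96, and in Notch3-/- mice 0.10 and -0.17. All 7 followed the other myelin list (r = 0.70 to 0.97) and the lineage factors (0.60 to 0.74). Mog, Mag, Cnp and Opalin also followed the precursor list (r = 0.54, 0.48, 0.48 and 0.61, adjusted permutation p = 0.00699, 0.0167, 0.0402 and 0.00359). Without the 2 farthest libraries these r were 0.40, 0.36, 0.32 and 0.43. By rho, only Opalin passed (0.51, adjusted permutation p = 0.0338). None of the 9 followed the neuron list with an adjusted p below 0.05 (r from -0.27 to 0.42). With the astrocyte list only Cnp passed, by rho (0.47, adjusted permutation p = 0.0450) and not by r (0.40, adjusted permutation p = 0.102).

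**Figure D5:**
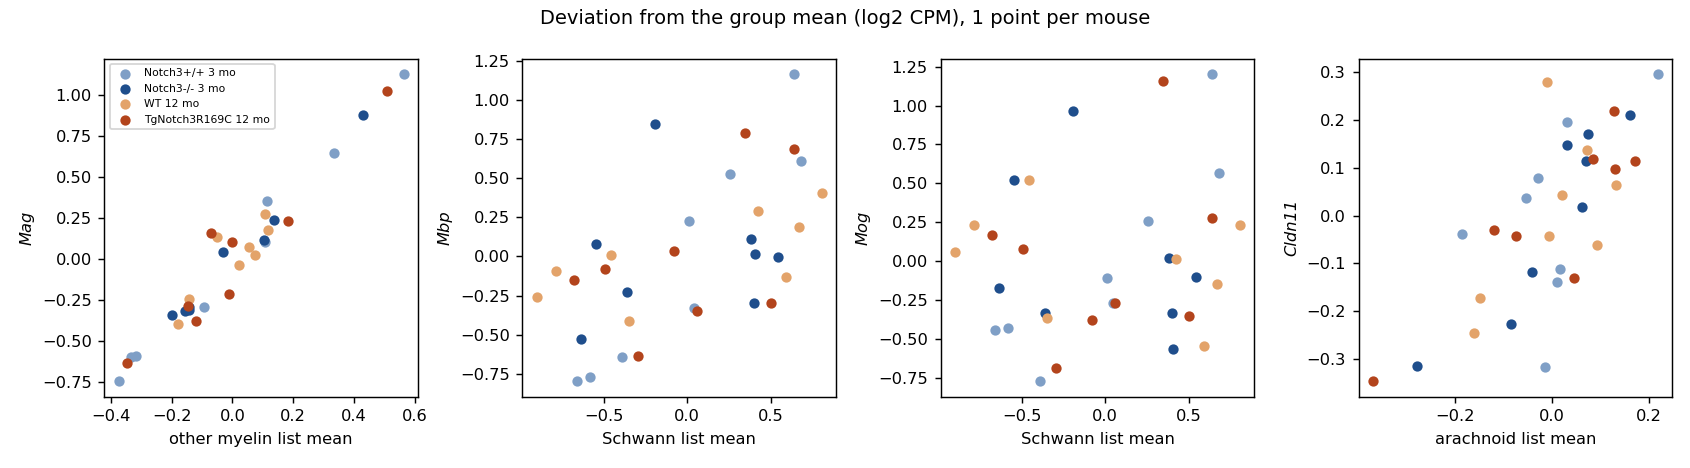
Deviation of log2 CPM from the group mean for 4 members (y axes) against the mean deviation of a gene list (x axes), 1 point per mouse and 1 colour per group. Mag follows the other myelin genes closely, Mbp follows the Schwann list more than Mog does, and Cldn11 follows the arachnoid list.

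The genes whose deviations were most like the members' mean, among 15529 genes with a mean of at least 1 CPM, were Bcas1 (rho = 0.93), Prr18 (0.91), Hapln2 (0.89), Myrf (0.88), S1pr5 (0.86), Galnt6 (0.86), Fa2h (0.84), Klk6 (0.83), Gjb1 (0.81) and Gpr37 (0.81), over 32 libraries. Of these 10, 8 stand in the lists of myelin genes or lineage factors, and S1pr5, a sphingosine receptor of oligodendrocytes, and Galnt6 do not. For Cldn11 alone the nearest was Mapk3 (0.86), followed by Tbx15 (0.81) and Lpar5 (0.80), and for Mal it was Galnt15 (0.75).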

How the data were processed

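Brain artery RNA of 32 mice was examined. For each Ensembl gene, the deposited table gives the count of reads as a whole number, not normalized by the authors. The submitters' processing notes name bcl2fastq 2.20.0.422, cutadapt 1.10, Bowtie2 2.2.8, STAR 2.5.3a, HTSeq 0.6.1p1 and the build mm39, without role or order. Of 55357 genes, 16744 had no counts and 52081 received a symbol from a list of mouse names.

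In R 4.3.3, edgeR 4.0.16 (filterByExpr, TMM, glmQLFit, glmQLFTest) compared 2 groups at a time, as the study's methods did with DESeq2, and a fit of 4 groups gave the difference between the mutants' changes. A gene was called at a Benjamini-Hochberg adjusted p below 0.05 over all genes tested. Levels are CPM with TMM factors over all libraries, and exon lengths came from GENCODE vM21. Correlations used 100000 permutations of mice within groups, of which the smallest p possible is 1e-05. Promoter windows are from RefSeq on GRCm38.p6, another build than that of the counts.

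The members and lists were chosen with earlier results of these data known. Named are the 9 members, list genes called in any comparison or among the 4 highest of each oligodendrocyte list, and the 10 genes most like the members' mean; Pmp2 and the genes nearest to Cldn11 and Mal alone were added after their values were seen, and some named genes are not reported here. Alternatives were RLE scaling, dropping the filter, a floor of 10 counts per library, DESeq2 1.42.0, limma 3.58.1 voom, 1 fit of 4 groups, a replicate block, neuron or astrocyte covariates and leaving out each library; those added after seeing the data were smooth muscle and Schwann covariates, leaving out choroid- or pituitary-rich libraries, and averaging both groups of each age. On simulated data with changes of 0.5 or 1 (log2), the test recovered 66.8%, 66.3% and 70.3% of the changed genes that passed the filter, for the Notch3-/-, TgNotch3R169C and control comparisons (17600, 17611 and 17520 genes). For changes of 0.5 it recovered 54%, 50% and 56.7%. The changed genes were drawn at random. Mbp, Mog, Mag, Mobp, Ermn and Opalin stood at percentile 87.7 to 91.9 of the spread within groups, among genes with at least 1 CPM. The shares therefore do not hold for these members. No libraries were duplicates (chi-square per gene 10.9 to 147.9), and p-values measure the spread between these mice.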

Additional observations from a re-analysis of the deposited data

Results flagged for a closer look

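Within a group of 8 mice, 1 mouse stood apart from the rest in 8 of 36 member and group combinations. Its gap to the nearest mouse exceeded Dixon's critical share of the group's range. About 1.8 would do so by chance if CPM were normally distributed within a group. The gaps were taken on the CPM scale, where high values lie farther apart than on the log2 scale. Gaps on the log2 scale were not tested, so whether 8 exceeds chance is not settled. Notch3-/- mouse 5 was the highest for Mbp (gap 0.651 of the range), Mag (0.629) and Ermn (0.713), at 1001, 52.7 and 17.3 CPM. TgNotch3R169C mouse 6 was the highest for Mog (0.633), Mag (0.620), Opalin (0.649) and Ermn (0.533), at 17.9, 76.3, 5.68 and 20.3 CPM. WT mouse 8 was the highest for Opalin (0.538), at 3.66 CPM. The same 2 mutant mice account for 7 of the 8, and the members vary together, so they are not independent of each other.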

How the results depend on the processing

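Between the control groups, 3 members were called, and 5 with DESeq2, 5 with both groups of each age averaged, 1 with the astrocyte list as a covariate (Mag 0.82 and Cnp 0.41, adjusted p = 0.0509 and 0.0536 by edgeR), and 0 without the choroid- or pituitary-rich libraries or with the smooth muscle or Schwann list as a covariate; leaving out 1 library gave 0 to 6. With the smooth muscle covariate the median was -0.00243 and the signs of Mog (-0.00950), Mobp (-0.0404), Opalin (-0.0865), Ermn (-0.00243) and Mal (-0.0540) turned. Mal was -0.189 with the Schwann covariate and -0.0587 with ages averaged, and -0.0365 to 0.0779 without 1 library. In TgNotch3R169C mice, Mobp (0.02) was -0.0219 with limma voom, -0.0406 and -0.162 with the neuron and astrocyte covariates and -0.00117 without the choroid- or pituitary-rich libraries, where Mal was 0.0363; without 1 library, Mobp ran from -0.120 to 0.103, Mog from -0.313 to 0.0154, Mag from -0.244 to 0.0321 and Mal from -0.114 to 0.0130. In Notch3-/- mice, Opalin was -0.0323 without those libraries. For the difference between the mutants' changes, Opalin was -0.0271 with the neuron covariate and -0.101 to 0.403 without 1 library. None of these values was called, and the cause was not tested. No member was called in either mutant or in their difference under any alternative, and the medians without 1 library ran from 0.12 to 0.47, from -0.24 to -0.01 and from -0.64 to -0.25. With the replicate number as a block, 5 members were called between the control groups and Mobp in TgNotch3R169C mice was -0.0193. Deviations of same-numbered mice had a correlation above 0.1 in 4, 4 and 3 of 8 pairs (Notch3-/-, TgNotch3R169C and control comparisons). The same-numbered mouse was the best match in 2, 1 and 1 of 8. The correlations of same-numbered mice ran from -0.25 to 0.42. Whether the numbers mark paired mice is not given by the labels and is not settled by these correlations.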
